A study of Mus musculus with 6 samples.

Results

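Arginine that enters a cell can be split by arginase into urea and ornithine, and ornithine decarboxylase turns ornithine into putrescine. Putrescine is then extended to the polyamines spermidine and spermine, small positively charged molecules that bind nucleic acids and that dividing cells make in quantity. In skin, polyamine synthesis has long been tied to the growth of keratinocytes and hair follicles, and arginase 1 is a known product of epidermal keratinocytes as well as of the liver and of some macrophages. The expression of 10 genes of this route was examined: the arginine transporter genes Slc7a1 and Slc7a2, the arginase genes Arg1 and Arg2, and the polyamine genes Odc1, Azin1, Amd1, Srm, Sms and Sat1. They are 10 of the 25112 named genes in the authors' deposited table, and 8 of the 10 are among the 11038 genes with an adjusted p-value. The group was chosen by pathway with the fold changes and adjusted p-values of this same comparison already known, and within each gene the RefSeq transcript was selected on the highest mean level. Their values are therefore a description, and no test was made of the group.

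The cells were primary epidermal keratinocytes from the skin of wild-type C57BL/6 mouse pups aged 1 to 3 days, cultured with 0.05 mM calcium. They were transfected with miR-Control (3 libraries) or with pro-miR-148a to raise the microRNA miR-148a (3 libraries), with 200 nM given for the transfection, and RNA was taken after 48 h. The labels do not say whether the libraries came from separate animals or cultures, so the p-values may measure technical spread only. The authors' deposited table holds no value per library: each transcript has a base mean (its normalized count averaged over the libraries compared), the log2 fold change and its standard error (SE), and p-values before and after adjustment. Levels, fold changes and adjusted p-values below are from that table, with n = 3 libraries in each group, except where a p-value is said to be adjusted again. The value of a gene in each library, the overlap of the groups and the depth of each library are therefore unknown.

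Which group the fold changes have as their numerator is not stated in the table. Among 9874 tested genes with an annotated 3' untranslated region (UTR), the 406 with the longest type of site for miR-148a (an 8mer, TGCACTGA) had a median log2 fold change of 0.11 as deposited, and the 7770 with none of the sites searched a median of -0.01. MicroRNAs lower the transcripts they pair with, so the deposited values are read here as control over miR-148a and all signs below are turned. A positive log2 fold change below is higher with miR-148a. This reading is an inference from a small difference, and every direction given here would turn with it.

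The mature microRNA and the sites that it could pair with in the 10 genes are shown to print its seed beside the letters searched for. The microRNA (sequence from RefSeq, GRCm38.p6) has its seed, bases 2 to 8, in capitals. For each gene the longest 3' UTR annotated in GENCODE M21 (build GRCm38) was searched, and the sites are shown with the part complementary to the seed, or to bases 2 to 7 followed by A, in capitals.
mmu-miR-148a-3p: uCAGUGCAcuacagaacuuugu
Sms, 8mer: agactgcagaaTGCACTGAccccctagaat
Azin1, 7mer-A1: accttgcttctgGCACTGAactattctagc
Slc7a2, 7mer-m8: agccaggcaggcTGCACTGtgtgggtgtct
The site of Sms starts at base 230 of a UTR of 2282 bases, that of Azin1 at base 2591 of 2934 and that of Slc7a2 at base 4871 of 5774, counted from 1 at the first base after the stop codon. The site of Sms lies on the transcript measured for it (NM_009214). Those of Azin1 and Slc7a2 do not lie on the transcripts whose values are given below (NM_001102458 and NM_001044740) but on others of the same genes, NM_001301688 and NM_018745 for Azin1 and NM_007514 for Slc7a2, which the authors' deposited table lists at 0. The other 7 genes held none of TGCACTGA, TGCACTG and GCACTGA on the sense strand of the UTR. Of the 9874 tested genes with a UTR, 21.3% held at least 1 of these overlapping motifs. The UTRs of Arg1 (389 bases), Odc1 (333 bases) and Srm (312 bases), the most abundant genes of the group, were among those without a match, which says only that these letters are not there.

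Arg1 stood apart in both level and fold change. With miR-148a, the cytosolic arginase gene was 4.73-fold higher (log2 fold change 2.24 ± 0.08 SE, 95% interval 4.26- to 5.26-fold, adjusted p = 9.63e-179 by the Wald test of the authors' deposited table). Its base mean was 54223 (NM_007482), the 64th highest of 11038 tested genes. Divided by the transcript length of 1477 bases, this is 36712 per kilobase, above 99.2% of the 10400 tested genes with a known length. As deposited its log2 fold change was -2.24, the lowest among the 407 genes whose base mean was 10000 or more. With the sign turned it was the highest of these, ahead of the kallikrein gene Klk10 (1.93). Over all tested genes it was 25th from the highest with the sign turned, and 7th by the size of its Wald score. In bulk RNA, more cells that make a transcript and more of it per cell cannot be told apart.

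Arg2, the gene of the mitochondrial arginase, lay far below it in level. The authors' deposited table gives it a base mean of 26.1 (NM_009705), or 18.2 per kilobase. Its log2 fold change of -0.16 ± 0.36 SE missed the threshold (adjusted p = 0.803). The 95% interval ran from 0.548- to 1.46-fold, so changes within that range in either direction are not excluded. Of the windows of 50 bases along the Arg2 transcript 21.2% also lie in transcripts of other genes, most of them in Vti1b. Of those along Arg1 none does. Here and below a window counts as shared if it matches on either strand. The difference between the arginases in fold change was not tested, since values of both come from the same libraries and their covariance is unknown.

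Of the polyamine enzymes, spermidine synthase was higher, and ornithine decarboxylase, with the opposite sign, missed the threshold. Srm, whose enzyme adds an aminopropyl group to putrescine to give spermidine, was 1.28-fold higher with miR-148a (log2 fold change 0.36 ± 0.09 SE, 95% interval 1.14- to 1.45-fold, adjusted p = 0.000246 in the authors' deposited table, base mean 3197, NM_009272). Odc1, the gene of the rate-limiting decarboxylase, had a log2 fold change of -0.13 ± 0.06 SE (adjusted p = 0.0607, base mean 11110, NM_013614) in the authors' deposited table. Its 95% interval, 0.847- to 0.986-fold, was the narrowest of the group on the log2 scale. With the authors' p-values adjusted again over transcripts with base means of 100 or more alone, Odc1 came past the threshold (adjusted p = 0.0395, not a deposited value). With no filter by mean (adjusted p = 0.0921), by Benjamini-Yekutieli (0.604) or with fold changes recentred on their median (0.0967) it did not pass. Odc1 has processed copies in the genome, and 42.2% of its windows of 50 bases also occur, on either strand, in transcripts of other genes. Reads could be split between them, which was not tested.

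Sat1, whose enzyme acetylates spermidine and spermine for breakdown or export, had a log2 fold change of 0.16 ± 0.15 SE (adjusted p = 0.475, base mean 368, NM_001291865) in the authors' deposited table. Sms, the spermine synthase gene and the carrier of the 8mer shown above, had a log2 fold change of -0.33 ± 0.39 SE at a base mean of only 7.26 (adjusted p = 0.597, NM_009214). Azin1 encodes a catalytically inactive relative of ornithine decarboxylase that binds antizyme and so spares the enzyme from degradation. Its most abundant transcript had a base mean of 11.2 (NM_001102458) and a log2 fold change of 0.23 ± 0.39 SE (adjusted p = 0.735, authors' deposited table). The intervals of Sms (0.472- to 1.35-fold) and Azin1 (0.687- to 1.99-fold) are too wide to tell a modest change from none.

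The arginine transporters were barely counted. Slc7a1, which encodes the widespread cationic amino acid transporter CAT-1, had a base mean of 8.43 and a log2 fold change of 0.20 ± 0.39 SE (adjusted p = 0.776, NM_007513, authors' deposited table). Slc7a2, the gene of the related transporter CAT-2, had a base mean of 0.383 in its most abundant transcript (NM_001044740) and no adjusted p-value. That transcript and the second transcript of Slc7a1 share the same fold change and SE with 480 transcripts of the table in all, these included, so these values are not particular to either gene.

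**Figure D1:**
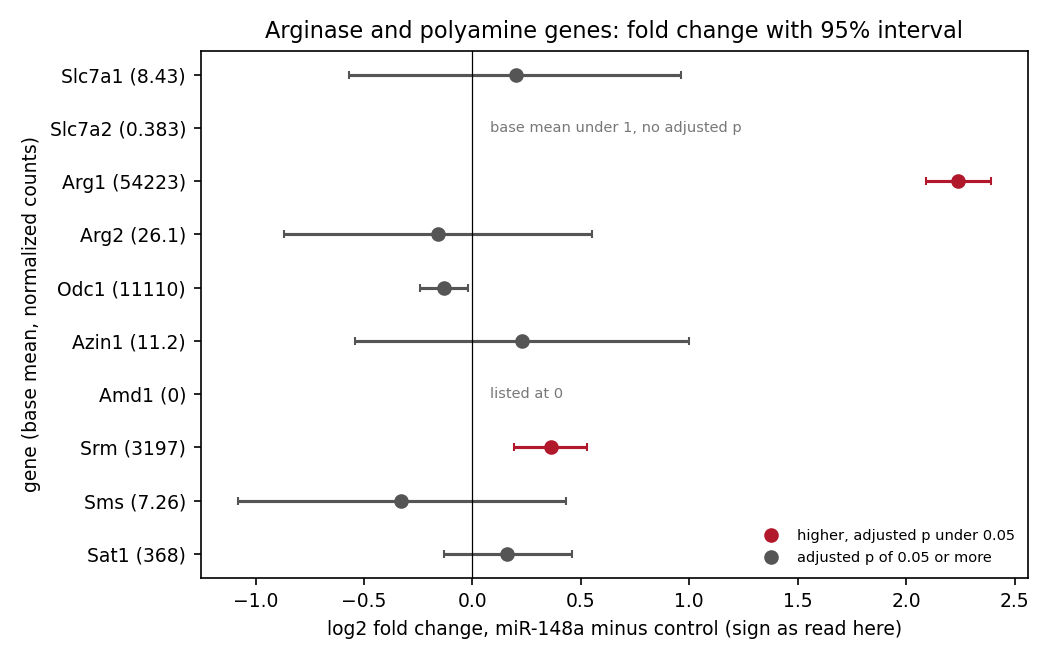
Log2 fold change (horizontal axis, miR-148a minus control in the sign read here) of the 10 genes, ordered along the route from arginine uptake to polyamine breakdown, with the base mean in parentheses. Points are the deposited values with the sign turned and bars are 95% intervals from the SE. Arg1 lies at 2.24 and Srm at 0.36, and the intervals of the other tested genes apart from Odc1 include 0.

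In all, 2 of the 8 tested genes were higher with miR-148a, none was lower and 6 did not pass the test. Of all tested genes 16.7% were higher and 16.8% lower, together 33.5%. The median log2 fold change of the 8 genes was 0.18, against -0.01 over all tested genes. Since the genes were proposed with these results known, nothing is read from that count. Per kilobase, the levels ran from Arg1 (36712) through Odc1 (5032), Srm (2390) and Sat1 (317) to Arg2 (18.2), Azin1 (2.66), Sms (1.95), Slc7a1 (1.17) and Slc7a2 (0.104). Whether neighbours in this order differ beyond the spread of the libraries is unknown, as no spread of the levels was given.

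**Figure D2:**
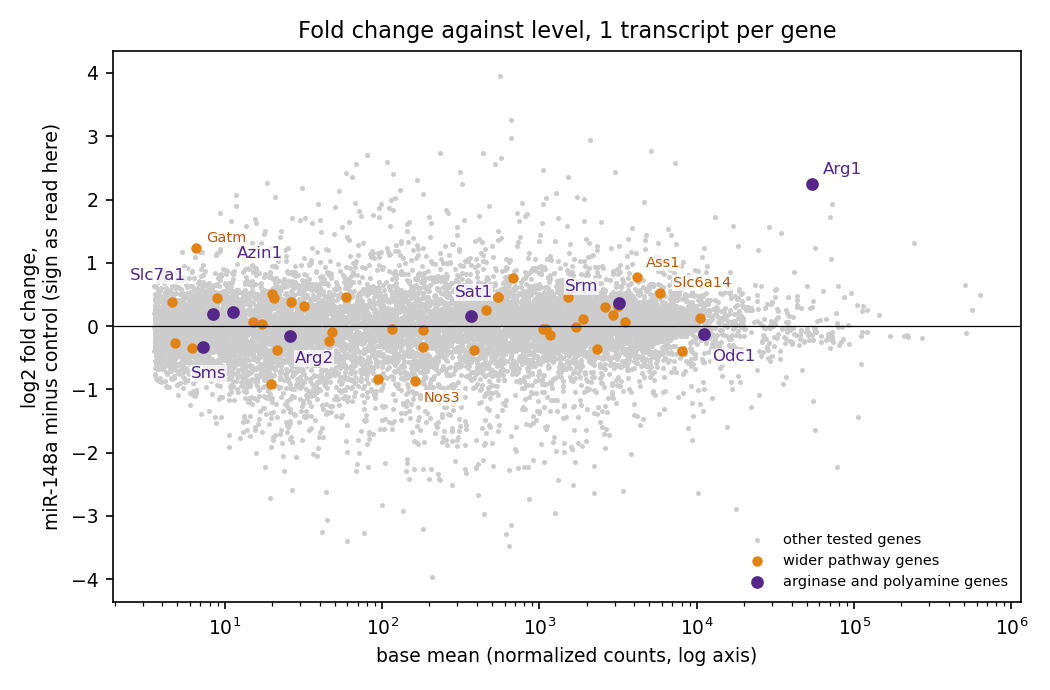
Log2 fold change (vertical axis, sign as read here) against base mean (log axis) for all 11038 tested genes, 1 transcript per gene. Purple points are the 8 tested arginase and polyamine genes and orange points the 42 tested genes of the wider pathway lists. Arg1, at a base mean of 54223, is the highest point among genes above 10000.

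The lower part of that order has to be read with the number of transcripts per gene. Arg1, Arg2, Odc1, Srm and Amd1 have 1 RefSeq transcript in the table, and the other 5 genes have 2 to 4. Azin1 was listed at 0 for 2 of its 4 transcripts, and Sms, Sat1 and Slc7a2 for 1 of 2. Among the genes of this group and of the wider lists described below, 25 of 41 genes with 1 transcript had base means of 100 or more (61.0%), but only 4 of 38 genes with 2 or more (10.5%). The same split ran through the whole table, at 34.3% of 16870 genes against 7.68% of 8242. A keratinocyte gene is 1 example: in the authors' deposited table Krt14, with 3 transcripts, had a base mean of 40.3. Its partner keratin gene Krt5, with 1, had 630448. The split was not strict: Mxi1, with 7 transcripts, had 679, and 5 of the 41 genes with 1 transcript were listed at 0. Whether the number of transcripts set any of these values was not tested. With that open, a low value of Sms, Azin1, Slc7a1, Slc7a2 or Sat1 is not taken here as a measure of low expression.

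Amd1 is the exception, with 1 transcript (NM_009665) listed at 0. The enzyme makes the aminopropyl donor that both spermidine and spermine synthase use. The mouse genome holds a near-identical gene, Amd2, also with 1 transcript and also listed at 0 in the authors' deposited table. Of the windows of 50 bases along the Amd1 transcript, 86.1% also occur in Amd2. In all, 2765 of its 3155 windows lie in transcripts of another gene, and the rest occur in Amd1 alone. The coding parts, 1005 bases each in GENCODE M21, differ at 1 base (G796C, the base of Amd1 first, counted from the first coding base). The stretch from base 766 to 825 is printed with that base in capitals to show how little tells the coding parts apart.
Amd1: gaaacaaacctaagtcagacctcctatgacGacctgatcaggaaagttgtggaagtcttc
Amd2: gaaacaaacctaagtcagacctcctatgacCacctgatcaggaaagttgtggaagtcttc
The sources used here do not say how reads that match several places were counted, and whether this set the value of 0 was not tested.

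**Figure D3:**
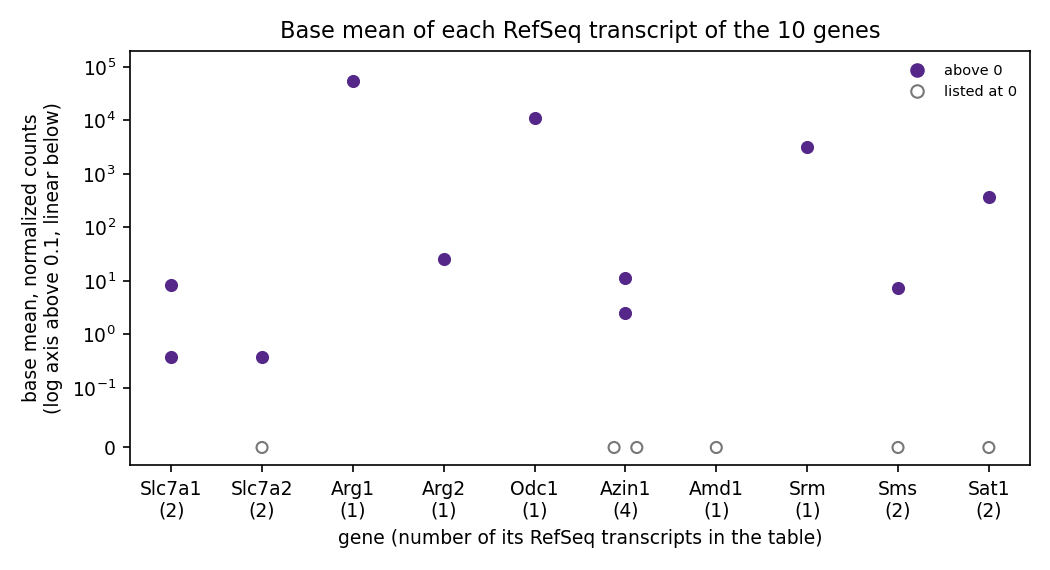
Base mean (vertical axis, log above 0.1 and linear below) of each RefSeq transcript of the 10 genes, with the number of transcripts in parentheses. Filled points are above 0 and open circles are listed at 0. The 3 highest genes, Arg1, Odc1 and Srm, each have a single transcript.

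The other genes of arginine and polyamine metabolism were taken in 8 lists by role, 69 genes in all, of which 42 were tested. Across them 10 were higher with miR-148a (23.8%), 6 lower (14.3%) and 26 did not pass the test, with a median log2 fold change of 0.09. These shares lie near those of all tested genes.

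Genes of arginine handling and the urea cycle were tested in 10 cases, with 4 higher, 2 lower and 4 not past the threshold (median 0.24). Ass1 and Asl, whose enzymes act in turn to rebuild arginine from citrulline, were both higher in the authors' deposited table: Ass1 1.71-fold (log2 fold change 0.77 ± 0.07 SE, with adjusted p = 8.61e-27, base mean 4194) and Asl 1.24-fold (0.31 ± 0.07 SE, with adjusted p = 5.60e-05, base mean 2613). Oat, the aminotransferase that diverts ornithine away from polyamines, was 1.13-fold higher (adjusted p = 0.0362). Gatm, which takes arginine into creatine synthesis, was 2.34-fold higher at a base mean of 6.57 (adjusted p = 0.00523). Nos3, a nitric oxide synthase that competes for arginine, was 1.83-fold lower (-0.87 ± 0.22 SE, with adjusted p = 0.000374, base mean 162), and the mitochondrial carrier gene Slc25a29 was 1.78-fold lower (adjusted p = 0.00246, base mean 94.1). Ddah1, which clears methylated arginines, had a log2 fold change of -0.06 ± 0.19 SE, and the mitochondrial ornithine carrier gene Slc25a15 of 0.45 ± 0.37 SE. The liver genes of the first steps of the urea cycle were at or near 0 in the authors' deposited table, Otc being listed at 0 and Cps1 at 0.665.

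Among the remaining polyamine enzymes and antizyme genes, 5 of 9 were listed at 0, as were 9297 of all 25112 named genes, and 3 were tested. Of these 3, 2 were lower, too few to set against the 16.8% over all tested genes. In the authors' deposited table Azin2, a second antizyme inhibitor gene, was 1.31-fold lower (log2 fold change -0.38 ± 0.14 SE, with adjusted p = 0.0204, base mean 384). Smox, the spermine oxidase gene, was 1.89-fold lower at a base mean of 19.6 (log2 fold change -0.92 ± 0.37 SE, with adjusted p = 0.0437). Smox has 9 transcripts in the table, 8 of them listed at 0, so this value is that of its most abundant transcript alone. Paox, a polyamine oxidase gene, had a log2 fold change of -0.04 ± 0.23 SE. Oaz1 and Oaz2, the antizymes that bind ornithine decarboxylase, have 2 transcripts each and were listed at 0. The calls of Oat and Smox ended when the authors' p-values were adjusted again with no filter by mean, and those of Oat, Smox and Azin2 at an adjusted p of 0.01. Adjusting again by Benjamini-Yekutieli ended these 3 and that of Gatm.

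Of 6 tested genes that carry cationic or large amino acids 1 was higher, the same share as over all tested genes (16.7%). This was Slc6a14, a broad transporter of neutral and cationic amino acids, 1.43-fold higher (log2 fold change 0.52 ± 0.09 SE, with adjusted p = 3.37e-07, base mean 5848, authors' deposited table); the other 5 missed the threshold. Slc7a5, the gene of the large neutral amino acid transporter LAT1 and the most abundant of these at a base mean of 10427, had a log2 fold change of 0.13 ± 0.07 SE (adjusted p = 0.153). Of 3 tested genes linked to polyamine transport 1 was lower, too few to set against the 16.8% over all tested genes. Gpc1, a glypican whose heparan sulfate chains bind polyamines, was 1.28-fold lower (-0.36 ± 0.08 SE, with adjusted p = 0.000130, base mean 2338). Cav1 (0.38 ± 0.35 SE) and Atp13a2 (0.44 ± 0.39 SE), a lysosomal polyamine exporter gene, did not pass.

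Spermidine donates the side chain of hypusine, an amino acid found in the translation factor eIF5A. Dohh, the gene of the hydroxylase that completes hypusine, was 1.25-fold higher (log2 fold change 0.32 ± 0.07 SE, with adjusted p = 0.000116, base mean 3161, authors' deposited table). Dhps, the gene of the first enzyme, had a log2 fold change of -0.04 ± 0.09 SE (adjusted p = 0.787), and Eif5a2 and Eif5a did not pass the test either. Eif5a had a base mean of only 21.6 with 9 transcripts in the table. In this list 1 of 4 tested genes was higher, too few to set against the 16.7% over all tested genes.

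Spermidine and spermine synthesis leaves methylthioadenosine, which cells recycle to methionine. Mtap, the gene of the phosphorylase that opens this salvage route, was 1.37-fold higher (log2 fold change 0.46 ± 0.08 SE, with adjusted p = 5.04e-07, base mean 1524, authors' deposited table). It was the only 1 of 7 tested genes of this list that passed (14.3% higher, against 16.7% of all tested genes). The next genes of the route measured at a similar level, Mri1 (-0.02 ± 0.08 SE) and Adi1 (-0.14 ± 0.09 SE), had intervals that included 0, as did Ahcy of the methionine cycle (0.07 ± 0.08 SE, base mean 3517).

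Proline can be made from ornithine or glutamate, and the list holds genes of both its making and its breakdown. Of 4 tested genes 2 were higher, against 16.7% of all tested genes, and 1 of these acts in each direction. Pycrl, a reductase that makes proline from ornithine-derived pyrroline carboxylate, was 1.37-fold higher (log2 fold change 0.46 ± 0.12 SE, with adjusted p = 0.000905, base mean 549). Prodh, which breaks proline down, was also 1.37-fold higher (0.46 ± 0.13 SE, with adjusted p = 0.00248, base mean 545) in the authors' deposited table. Aldh4a1, a dehydrogenase gene of proline breakdown, had a log2 fold change of -0.05 ± 0.11 SE, and Pycr1, another gene of proline synthesis, of -0.33 (adjusted p = 0.182, base mean 183), and neither passed.

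Odc1 is a textbook target of the transcription factor Myc, whose partner Max also pairs with the Mxd repressors. Myc has 4 transcripts in the table, all listed at 0, so its own level is unknown. Of 5 tested genes, Mxi1 was 1.69-fold higher (log2 fold change 0.75 ± 0.11 SE, with adjusted p = 1.32e-11, base mean 679) and Mxd1, which rises as keratinocytes differentiate, was 1.31-fold lower (-0.39 ± 0.08 SE, with adjusted p = 9.61e-06, base mean 8097) in the authors' deposited table. Mycn (0.46 ± 0.30 SE) and Max (-0.09 ± 0.31 SE) did not pass the test. With 1 higher and 1 lower, these 5 are too few to set against the 16.7% and 16.8% over all tested genes.

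**Figure D4:**
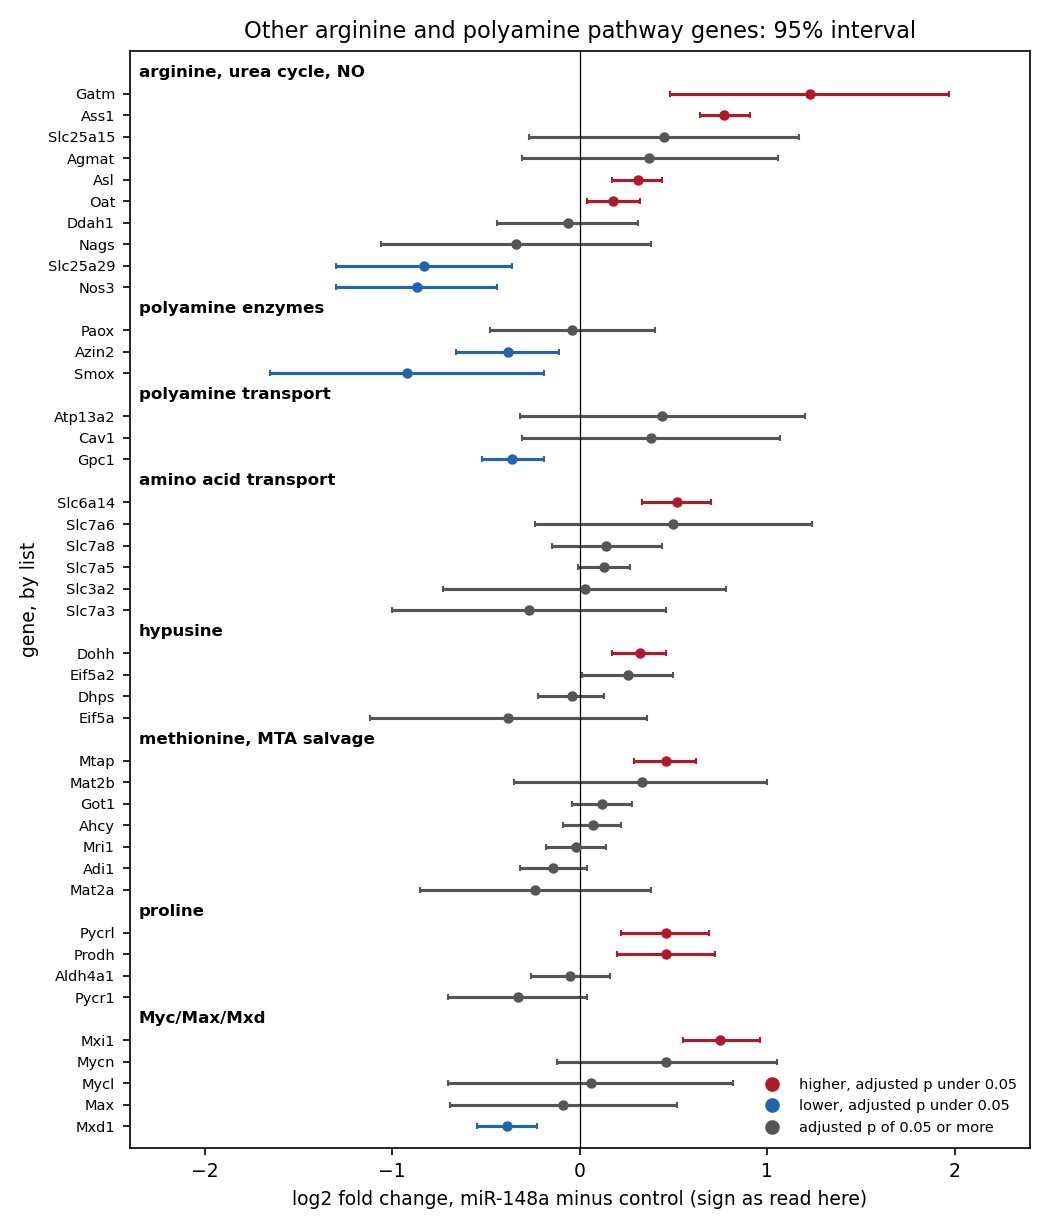
Log2 fold change (horizontal axis, sign as read here) with 95% intervals from the SE for the 42 tested genes of the 8 wider lists. Red points were higher and blue points lower at an adjusted p under 0.05. Ass1 (0.77), Mxi1 (0.75) and Slc6a14 (0.52) are among the higher genes, and Nos3 (-0.87) and Slc25a29 (-0.83) among the lower ones.

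Because Arg1 is also made by macrophages, markers of other cells are given beside it. Of 11 macrophage and other immune markers in the authors' deposited table, 5 were listed at 0, as were 9297 of all 25112 named genes. Among these 5 were the pan-leukocyte gene Ptprc, the macrophage gene Adgre1 and the genes Retnla and Chil3 that often accompany Arg1 in macrophages. Ptprc and Adgre1 have 3 transcripts each in the table, and as for the genes with several transcripts above, a value of 0 is no measure of absence. Retnla and Chil3 have 1 each. The 6 that were tested had base means from 10.6 to 416. The base means of all 11 summed to 701, a sum that the genes with several transcripts can make too low. Levels of different genes do not measure shares of cells. Of these 6, Lyz2, C1qa, C1qb and Mrc1 were lower with miR-148a, by 2.10- to 6.59-fold, Csf1r was 1.70-fold higher and Cd68 did not pass. Of 8 fibroblast markers 5 were lower, by 1.23- to 1.81-fold, and none was higher; their base means summed to 25055. Of 5 tested melanocyte markers 1 was lower and 4 did not pass. Keratinocyte markers with 1 transcript were abundant, with base means of 630448 for Krt5, 207541 for Perp, 84961 for Sfn, 36792 for Cdh1 and 2473 for Krt15. Those with several transcripts were low: Trp63 was listed at 0, and base means were 40.3 for Krt14, 32.0 for Col17a1, 6.50 for Itga6 and 4.22 for Itgb4. Of 9 tested keratinocyte markers 2 were higher, Krt15 by 3.12-fold and Krt5 by 1.41-fold. Sfn (1.16-fold) and Cdh1 (1.15-fold) were lower, and 5 did not pass. The keratinocyte share was 22.2% in each direction, against 16.7% higher and 16.8% lower over all tested genes. Since the table has no value per library or group, the range of these sums in each group could not be given, and their part in the values of the arginase and polyamine genes was not tested.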

How the data were processed

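RNA sequencing of 6 libraries, 3 control and 3 miR-148a by the treatment label, is represented by the authors' deposited table of their own comparison, with 42885 RefSeq transcripts and no column per library. Per the submitters' processing notes, DESeq2 and the mouse build mm9 were used. The sources used here name no aligner, counter or annotation. Per the file headers, the deposited values are a base mean (a signal: mean normalized count), the log2 fold change with its standard error, the Wald score, and p-values before and after adjustment. Without values per library no model was fitted; genes are called at the authors' adjusted p of 0.05. As alternatives, the authors' p-values were adjusted again, and the Wald test was computed again from their fold changes, recentred on the median, and standard errors. The authors' deposited GO table adds p-values and gene numbers per category.

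Transcripts were paired with symbols by RefSeq accession (42739 matched, GRCm38.p6); each gene is its transcript with the highest base mean. Coordinates are not given because builds differ. Intervals are 95%, from the standard error. Levels per kilobase used GENCODE M21 transcript lengths. Named genes are the 10 genes, each list's genes past the threshold and up to 2 abundant others per list; Klk10, Otc, Cps1, Oaz1, Oaz2, Amd2, Myc, Eif5a, Mri1 and Adi1 were added after their values were seen, and cell type markers come from their lists. 1 listed gene is not reported here and is left out of the counts. The members and lists were chosen with earlier results of these data known. Python 3.11.15, pandas 2.3.3 and numpy 2.4.6 were used.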

Additional observations from a re-analysis of the deposited data

How the results depend on the processing

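Thresholds, the transcript per gene, the centre of the fold changes, the filter on low values, the correction and its family were varied for the counts and for the 8 tested genes. Most of these choices cannot move a fold change, so they say nothing about directions; the numerator, which would turn every one, was not varied. The count of arginase and polyamine genes that were higher stayed at 2 under each of these alternatives. The count of those lower went from 0 to 1 at an adjusted p of 0.1 and to 1 among base means of 100 or more. In both cases this was through Odc1 (log2 fold change -0.13, adjusted p = 0.0607, and 0.0395 when adjusted again). Odc1 did not pass with no filter by mean (adjusted p = 0.0921), when recentred (0.0967) or by Benjamini-Yekutieli (0.604). Of the 18 genes called in the group and the wider lists, 14 were also called under the Benjamini-Yekutieli correction, which lost Azin2, Gatm, Oat and Smox, and 15 at an adjusted p of 0.01, which lost Azin2, Oat and Smox. Searching every annotated 3' UTR left the genes with a site at 3. No paired analysis was possible because the table has no column per library, and for the same reason no library could be left out in turn. Among tested transcripts the intervals were narrower at higher levels. The median half-width of the 95% interval was 1.11-fold at base means of 1000 or more and 1.22-fold from 100 to 1000. It was 1.62-fold from 10 to 100 and 1.66-fold under 10. This does not extend to the untested transcripts near 0: Slc7a2 at a base mean of 0.383 had the same SE (0.15) as Sat1 at 368. A small SE is therefore no sign of precision at the lowest levels, and intervals of low genes may be too narrow.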

Other observations

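In the authors' deposited GO table, the category "urea cycle" held 2 changed genes of 6 (over-representation p = 0.237), and "L-ornithine transmembrane transporter activity" 1 of 1 (p = 0.105). Each of the categories "spermidine metabolic process" and "high-affinity arginine transmembrane transporter activity" had 0 changed genes of 1. The adjusted p of all 4 was 1. The table does not name the genes counted, and the cut-off by which a gene was counted as changed is not given here. The counts need not match the calls above, where Arg1, Ass1 and Asl all passed.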
